A study of Mus musculus with 40 samples.

Results

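The unfolded protein response and the chaperones of the endoplasmic reticulum (ER) were described through 35 genes, given as a list of names and grouped here by role, out of 55536 genes in the deposited tables. The list holds 5 stress sensors and transcription factors, 2 subunits that direct the eIF2α phosphatase, 10 chaperones and co-chaperones of the HSP70 and HSP90 kind, 2 lectin chaperones, 4 protein disulphide isomerases, 11 genes of ER-associated degradation and 1 translocon subunit. All 35 were found in the tables and all 35 passed the filter on low counts in each of the 8 contrasts tested, with between 134 and 71111 reads per library. RNA-seq was done in mouse embryonic stem cells (mESCs) of 3 genotypes: WT, with 2 biological replicates, *Ccnc* KO, as 3 clones named D1, G2 and H5, and 3 further clones, B9, H4 and C8, with *Cdk8* KO. *Ccnc* encodes Cyclin C and *Cdk8* its partner kinase, both parts of the kinase module of Mediator. Cells of every genotype were *Atm* WT and were collected after 4 h with DMSO or with 900 nM AZD6738, an inhibitor of the kinase ATR (ATRi). Each KO clone was 1 line grown from 1 edited cell of Cas9-expressing mESCs, and both of its libraries came from that line.

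Secretory and membrane proteins fold in the ER, and an overload of unfolded proteins sets off the unfolded protein response. IRE1 (*Ern1*) splices the *Xbp1* mRNA, PERK (*Eif2ak3*) phosphorylates eIF2α, which slows translation and favours the factor ATF4, and ATF6 is cut to release a transcription factor. These arms raise chaperones such as BiP (*Hspa5*), folding enzymes, and the machinery that pulls misfolded proteins back to the cytosol for the proteasome. Gene counts measure mRNA level only, so spliced and unspliced *Xbp1*, phosphorylation and cleavage were not measured.

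Promoters of several of these genes carry elements through which the response acts, and 3 are shown: that of *Herpud1*, which was lower with ATRi, of *Calr*, which was higher in KO cells, and of *Syvn1*, a partner of *Herpud1* that was not called in any contrast. The ER stress response element, bound by ATF6 with NF-Y, was searched as CCAAT, 9 bases of any kind, then CCACG. Its second form was searched as ATTGG, 1 base of any kind, then CCACG, and the composite site of C/EBP and ATF factors, to which ATF4 can bind, as TGATGNAA. The letters TGACGTG, a site for ATF6, were searched too. All were searched on both strands in the 250 bases before the start, and the first 2 share the letters CCACG. The stretches below run from base -170 to base -11 of the RefSeq start on GRCm38.p6, 5′ to 3′ along the gene, with these motifs in capitals.

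*Herpud1*, chr8:94386259-94386418, plus strand: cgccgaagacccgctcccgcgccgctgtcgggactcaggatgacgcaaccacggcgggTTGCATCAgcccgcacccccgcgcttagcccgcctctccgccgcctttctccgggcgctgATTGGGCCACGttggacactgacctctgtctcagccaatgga
*Calr*, chr8:84846942-84847101, minus strand: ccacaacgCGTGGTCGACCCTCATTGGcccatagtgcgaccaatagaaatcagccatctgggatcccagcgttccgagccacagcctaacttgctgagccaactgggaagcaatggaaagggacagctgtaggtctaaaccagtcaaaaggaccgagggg
*Syvn1*, chr19:6046406-6046565, plus strand: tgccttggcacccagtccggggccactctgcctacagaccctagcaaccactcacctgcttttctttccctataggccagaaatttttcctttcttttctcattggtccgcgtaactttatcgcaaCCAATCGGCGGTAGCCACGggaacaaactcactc

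Capitals in *Herpud1* mark first the composite site, read on the opposite strand at bases -112 to -105, and then the second form of the element at -52 to -42. Capitals in *Calr* mark the element on the opposite strand at -162 to -144, and those in *Syvn1* mark it at -44 to -26. A promoter window was matched for 30 of the 35 genes, and *Atf6*, *Ppp1r15b*, *Hyou1*, *Manf* and *Derl1* had none. The element was found in 9 of these 30 (*Hspa5*, *Hsp90b1*, *Dnajc3*, *Creld2*, *Calr*, *Canx*, *Pdia6*, *Syvn1* and *Derl3*), or 30%, against 0.113% of 32851 windows. The second form was found in *Herpud1* alone among the 30, against 0.0304% of all windows. The composite site was likewise found in *Herpud1* alone, against 3.45% of all windows. TGACGTG was found in *Hspa5* and *Vcp*, against 1.65% of all windows. A match of letters does not show binding, and the motifs were chosen with the values known. The elements are known from the response for which the list was drawn, so their share here is a description and not a test.

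Levels set the background for all comparisons. As RPKM, a read count scaled to exon length and library size, the lectin chaperone *Calr* (calreticulin) was highest in WT cells under DMSO, at 235 and 251.5 in the 2 replicates of the *Ccnc* multiplex. The isomerase *P4hb* followed at a mean of 197, *Canx* (calnexin) at 184, *Hsp90b1* at 160, *Pdia3* at 154 and *Hspa5* at 131. Degradation genes lay lower, from 1.91 (*Derl3*, of the derlins that span the ER membrane) to 51.4 (*Vcp*, the ATPase that extracts substrates). Within the group of sensors and factors, *Eif2ak3* at 5.66, *Atf6* at 4.45 and *Ern1* at 2.12 were among the lowest, while *Atf6b* and *Xbp1* reached 36.8 and 32.7. *P4hb* and *Canx* did not separate, since their replicates spanned 187 to 207 and 175 to 193. *Vcp* shared 40.5% of its 50-base stretches with transcripts of other genes, most often *Vcp-rs*, and *Sec61b* 17.4%, so their counts are uncertain.

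**Figure D1:**
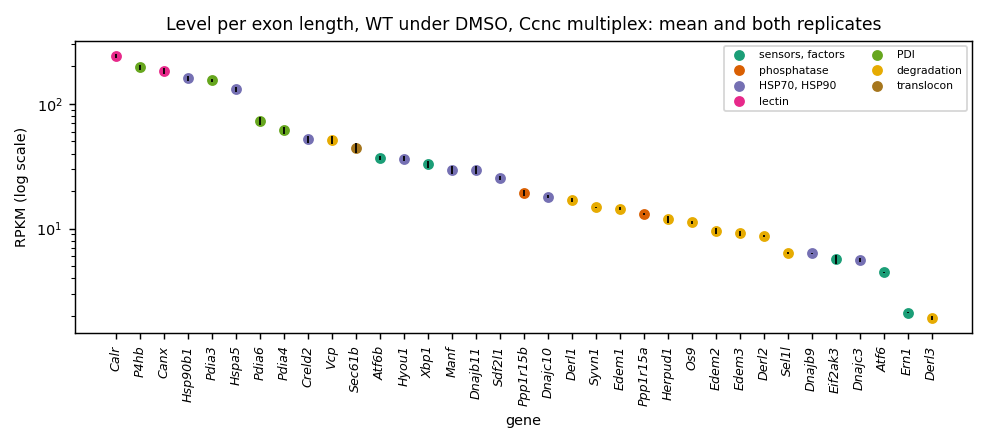
Level of each of the 35 genes in WT cells under DMSO in the Ccnc multiplex, as RPKM on a log axis, coloured by role, with dots for the mean and black lines joining the 2 replicates. Chaperones and isomerases fill the top 9 places, from 243 for *Calr* to 52.0 for *Creld2*, and *Ern1* and *Derl3* the bottom 2, at 2.12 and 1.91.

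The *Ccnc* KO libraries were sequenced in one multiplex and the *Cdk8* KO libraries in another, and the same 4 WT libraries were sequenced in both, so both comparisons share their controls. Library totals lay between 30899823 and 67274049 reads. For these 35 genes a WT library differed between its 2 sequencing runs by a median of 0.04 and at most 0.33 on the log2 scale. *Ccnc* mRNA was at 39.6 to 45.1 CPM (counts scaled to library size after TMM normalization) in WT and 4.24 to 7.40 in *Ccnc* KO libraries. *Cdk8* mRNA was at 78.6 and 71.2 in WT under DMSO and 71.5 in WT replicate 1 under ATRi. It was at 52.3 to 64.5 in *Cdk8* KO libraries, below these WT libraries but not lost. WT replicate 2 under ATRi, at 57.7, lay among the KO libraries. WT replicate 2 under ATRi was left out of the tests, following the authors. In the *Ccnc* multiplex this library lay above the other 3 WT libraries for 9 genes and below them for 15. Only 1 WT library under ATRi then remained.

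The first question was whether ATR inhibition for 4 h moved this network. In both multiplexes 1 of the 35 genes was called in the unblocked test, and it was lower. With the clone as a block this stayed at 1 in the *Ccnc* multiplex and became 9 in the other, 8 of them higher. In that blocked fit of the *Cdk8* multiplex 4.87% of all genes were higher and 6.39% lower. The share of all genes in the blocked fit of the *Ccnc* multiplex is not given here. The gene called in all of these fits was *Herpud1*, an ER membrane protein that helps assemble the degradation complex and is known as a target of both ATF6 and the PERK to ATF4 arm. In the unblocked test the background for all genes tested was 0.743% lower and 0.366% higher in the *Ccnc* multiplex. It was 0.0481% lower and 0.0374% higher in the *Cdk8* multiplex. *Herpud1* (chr8:94386438-94395377, plus strand, GRCm38) was at 29.2 and 26.0 CPM in WT, and at 26.5, 22.9 and 22.4 CPM in clones D1, G2 and H5 under DMSO. Under ATRi it was at 16.9 CPM in WT replicate 1, and at 14.5, 13.5 and 14.9 CPM in the same clones. No library under ATRi reached the lowest DMSO library, and the library left out, at 20.2 CPM, was also below it.

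The *Cdk8* multiplex gave *Herpud1* at 27.8 and 24.9 CPM in WT and at 25.0, 20.7 and 25.1 CPM in clones B9, H4 and C8 under DMSO. Under ATRi it was at 18.5 CPM in WT replicate 1 and at 16.0, 15.5 and 16.0 CPM in the clones, again with no overlap. The log2 fold change was -0.73 ± 0.08 (SE, n = 4 ATRi and 5 DMSO libraries) in the *Ccnc* multiplex, with an adjusted p of 0.000322 by edgeR's quasi-likelihood test. It was -0.56 ± 0.08 in the *Cdk8* multiplex, with an adjusted p of 0.0355 by the same test. These folds are 0.602 and 0.680 of the DMSO level. Without B9, without C8 and without WT replicate 2 the *Cdk8* multiplex gave -0.53, -0.53 and -0.58, with adjusted p of 0.181, 0.344 and 0.0691 by edgeR, and no gene of the list was called.

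**Figure D2:**
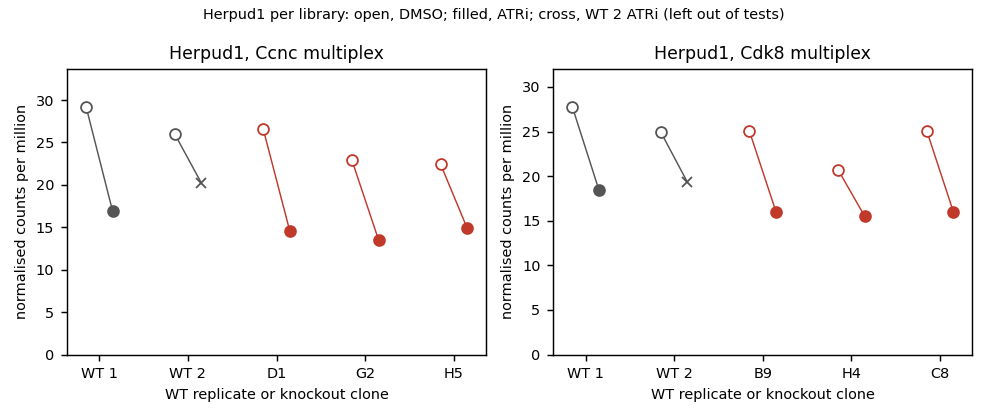
*Herpud1* level in CPM (linear axis from 0) in each library, by WT replicate or KO clone and multiplex, with open symbols for DMSO, filled symbols for ATRi and a cross for the library left out of the tests. Every line falls from DMSO to ATRi, and the filled points lie between 13.5 and 18.5 while the open ones lie between 20.7 and 29.2.

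The change was also tested within the KO clones alone. In the 3 *Ccnc* KO clones *Herpud1* was lower by -0.87, -0.76 and -0.59 on the log2 scale (D1, G2 and H5), and the test within those clones gave -0.74 ± 0.10 (SE) with an edgeR adjusted p of 0.0163. It was the 1 member called there, in a background of 0.0536% lower and 0.0358% higher. Without D1, G2 or H5 in turn the adjusted p was 0.132, 0.292 and 0.0674 by edgeR. In the 3 *Cdk8* KO clones it was lower by -0.65, -0.42 and -0.65 (B9, H4 and C8), and the same test gave -0.58 with an adjusted p of 0.482. No gene of the 17162 tested was called within the *Cdk8* KO clones (0%), 1020 of them had an unadjusted p under 0.05, and DESeq2 called 48. With the clone as a block the adjusted p of *Herpud1* there was 0.000444 by edgeR and with DESeq2 it was 0.00114.

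Of the other 10 genes of ER-associated degradation, none was called in either multiplex in the unblocked test, and their log2 fold changes ran from -0.11 to 0.16 in the *Ccnc* and from -0.05 to 0.17 in the *Cdk8* multiplex. *Syvn1*, the ubiquitin ligase of the complex in which HERPUD1 works, was at -0.04 and 0.06. *Sel1l*, its partner, was at 0.12 and 0.15, and *Derl1*, its derlin neighbour, at 0.10 and 0.03. The median over all 11 was 0.06 and 0.03, beside -0.01 over all genes tested in each multiplex.

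None of the 10 HSP70 and HSP90 chaperones and co-chaperones was called in the unblocked test, and 7 had positive values in the *Ccnc* multiplex against 8 in the other. *Hspa5* (BiP, the HSP70 of the ER and the classic reporter of its stress) was at 579 and 528 CPM in WT and at 513, 593 and 584 CPM in D1, G2 and H5 under DMSO. Under ATRi it was at 675 CPM in WT replicate 1 and at 603, 600.0 and 615 CPM in the clones. The *Cdk8* multiplex gave 582 and 530 CPM in WT and 602, 618 and 657 CPM in B9, H4 and C8 under DMSO, against 693 CPM and then 635, 710.4 and 730 CPM under ATRi. The libraries tested did not overlap in the *Ccnc* multiplex and did in the *Cdk8* multiplex. The library left out went the other way, to 486 and 477 CPM, which was lower than its own DMSO library by -0.12 and -0.15 on the log2 scale. Over the libraries tested the log2 fold changes of 0.16 and 0.20 had adjusted p of 0.199 and 0.243 by edgeR.

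The clone or WT replicate pairs the DMSO and ATRi libraries, and with it as a block the *Cdk8* multiplex gave 9 called genes in place of 1. *Herpud1* was lower at -0.58, and 8 were higher: *Dnajb9*, a co-chaperone of BiP, at 0.28, *Hspa5* and *Hsp90b1* (GRP94) at 0.17 each, *Sel1l* at 0.15, *Pdia3* at 0.12, *Calr* at 0.12, *P4hb* at 0.11 and *Canx* at 0.10. Their adjusted p ran from 0.00288 to 0.0361 by edgeR, in a background of 4.87% higher and 6.39% lower. Within the *Cdk8* KO clones the blocked test called *Hsp90b1* at 0.16 and *Hspa5* at 0.14 higher and *Herpud1* lower, against 2.85% higher and 4.1% lower of all genes. In the *Ccnc* multiplex the blocked test called *Herpud1* alone, with *Hspa5* at 0.13 and an adjusted p of 0.202 by edgeR. The share of all genes in that fit is not given here. Whether the chaperones differed between multiplexes was not tested.

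**Figure D3:**
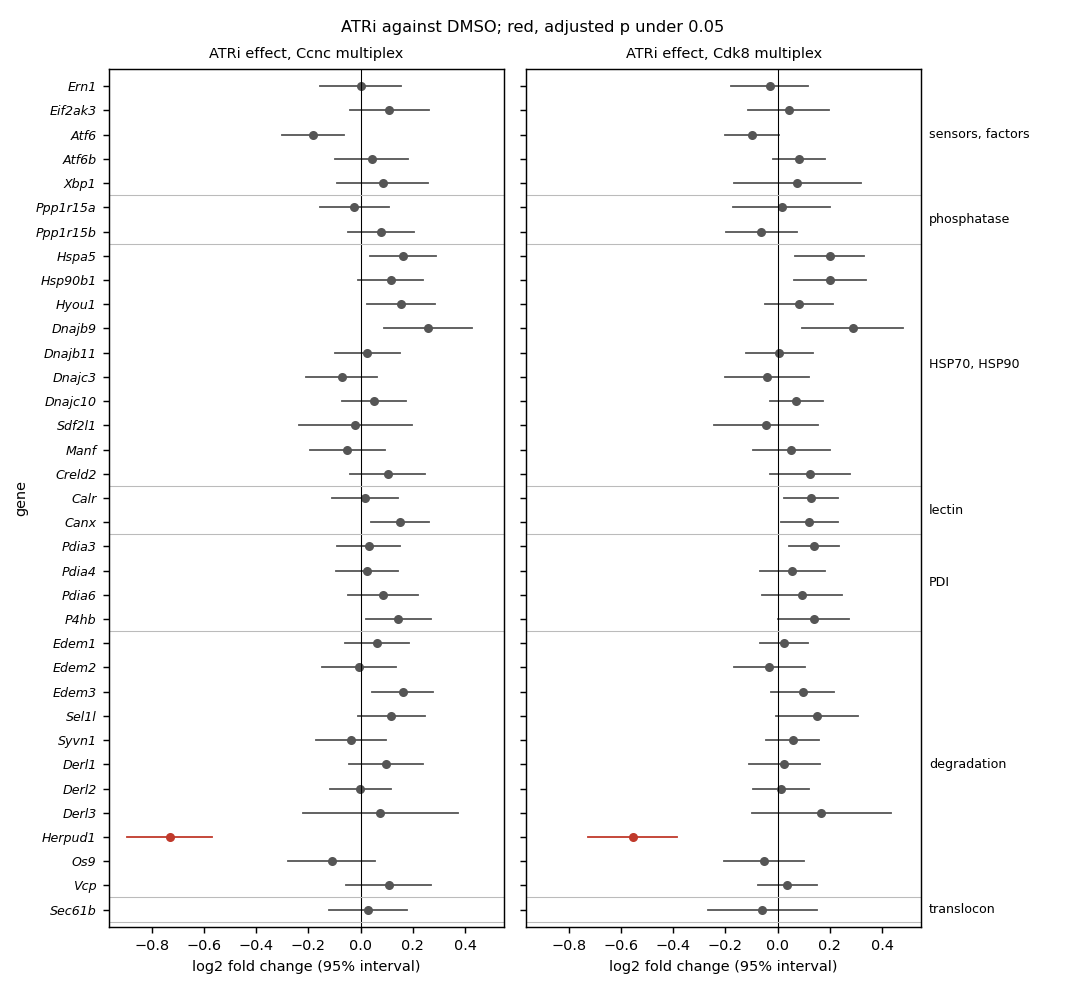
Log2 fold change of each gene with ATRi against DMSO (dots) with its 95% interval (lines) in the 2 multiplexes, by role, with red for an adjusted p under 0.05. *Herpud1* stands alone at -0.73 and -0.56, *Dnajb9* is the highest at 0.26 and 0.29, and the remaining genes lie between.

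Clone by clone, 8 of the 35 genes were higher under ATRi in all 3 *Ccnc* KO clones and 3 were lower, against 17.9% and 19.9% of all genes tested. The 3 lower were *Herpud1*, *Atf6* and *Dnajc3*, the last an inhibitor of PERK that also acts as a co-chaperone. In the *Cdk8* KO clones 13 were higher, against 20.6%, and 2 were lower, against 24%, namely *Herpud1* and *Atf6*. Every ATRi library tested lay below every DMSO library for *Herpud1* and *Atf6* in both multiplexes, a pattern of 2.86% of all genes in the *Ccnc* and 2.16% in the *Cdk8* multiplex. The reverse held in the *Ccnc* multiplex for *Canx*, *Dnajb9* and *Hspa5* (1.74% of all genes) and in the *Cdk8* multiplex for none of the 35 (1.93%). The library left out of the tests, WT replicate 2 under ATRi, broke these patterns in the *Ccnc* multiplex for 3 of the genes: *Atf6*, at 36.3 CPM, was above the lowest DMSO library, and *Canx*, at 767 CPM, and *Hspa5*, at 486 CPM, were below every DMSO library.

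The sensors themselves were not called. *Atf6*, the sensor released by cleavage, was at 40.5 and 41.6 CPM in WT and at 38.0, 35.6 and 37.9 CPM in D1, G2 and H5 under DMSO, against 35.3 CPM in WT replicate 1 and 32.6, 34.2 and 32.5 CPM in the clones under ATRi. In the *Cdk8* multiplex it was at 39.4 and 41.5 CPM in WT and 39.5, 39.0 and 38.9 CPM in B9, H4 and C8 under DMSO, against 36.4 CPM and then 37.2, 36.6 and 37.8 CPM under ATRi. Its log2 fold changes of -0.18 and -0.10 had adjusted p of 0.126 and 0.474 by edgeR. *Ern1* was at 0.00 (95% interval -0.15 to 0.15) and -0.03, *Eif2ak3* at 0.11 and 0.04, *Xbp1* at 0.08 and 0.08 and *Atf6b* at 0.04 and 0.08.

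*Ppp1r15a* (GADD34), the stress-induced subunit that restores translation by removing phosphate from eIF2α, did not separate by treatment. It was at 37.6 and 39.0 CPM in WT and 39.3, 39.5 and 37.6 CPM in D1, G2 and H5 under DMSO, and at 34.9 CPM in WT replicate 1 and 41.9, 36.7 and 40.0 CPM in the clones under ATRi. With the *Cdk8* clones the values were 37.5 and 37.8 CPM, then 39.5, 31.5 and 31.8 CPM in B9, H4 and C8 under DMSO, against 33.6 CPM, then 36.2, 35.3 and 38.1 CPM under ATRi. The log2 fold changes were -0.02 and 0.02, with 95% intervals of -0.16 to 0.11 and -0.17 to 0.20.

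Outside the 35, the list of 15 other regulators of the response also held genes that were lower. With ATRi 3 of the 15 were called lower in the *Ccnc* multiplex and 1 in the other, against 0.743% and 0.0481% of all genes. None was called higher, and the medians were -0.11 and -0.10. *Trib3*, a pseudokinase known as a target of ATF4, was at 61.3 and 63.3 CPM in WT under DMSO and 29.0 CPM in WT replicate 1 under ATRi. In D1, G2 and H5 it went from 49.8, 47.2 and 46.3 CPM to 29.6, 22.7 and 22.6 CPM. Its log2 fold changes were -0.99 and -1.04, with adjusted p of 3.61e-05 and 0.000631 by edgeR. *Atf4* was at -0.47 (adjusted p of 0.0298 by edgeR) and -0.42 (0.0718). Of the 27 other ER folding genes, the 19 other degradation genes, the 24 genes of translocation and glycosylation and the 18 cytosolic heat shock genes, none was called with ATRi in either multiplex. In that order 6, 2, 0 and 6 of them had an unadjusted p under 0.05 in the *Ccnc* multiplex, and 1, 0, 0 and 6 in the other.

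The 9 genes with the ER stress response element had log2 fold changes with ATRi of -0.07 to 0.16 (median 0.09) and -0.04 to 0.20 (median 0.12), and none was called in the unblocked test. With the clone as a block, 4 of them (*Hsp90b1*, *Hspa5*, *Calr* and *Canx*) were called higher in the *Cdk8* multiplex. The 21 with a promoter window and without the element had medians of 0.03 and 0.04. In the same blocked fit *Dnajb9*, *Pdia3*, *Sel1l* and *P4hb* of these 21 were called higher and *Herpud1* lower. Of all genes, 4.87% were higher and 6.39% lower in that fit.

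The next question was whether the KO cells answered ATRi differently from WT cells. The interaction of genotype and ATRi was called for no gene in either multiplex (0% of 18577 and 0% of 18721 genes), with 395 and 255 genes at an unadjusted p under 0.05 and none called by DESeq2. Of the 35 genes, 1 had an unadjusted p under 0.05 with *Ccnc* KO (*Sel1l*, -0.27) and 0 with *Cdk8* KO. For *Herpud1* the extra change in KO cells was -0.04 (95% interval -0.41 to 0.32) with *Ccnc* KO and -0.06 (-0.46 to 0.33) with *Cdk8* KO. For *Hspa5* it was -0.20 (-0.47 to 0.07) and -0.17 (-0.46 to 0.11). These intervals rest on 1 WT library under ATRi and do not show that the genotypes respond alike.

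The last question was whether loss of Cyclin C or CDK8 moved the network itself. With *Ccnc* KO 3 of the 35 genes were called, 1 higher and 2 lower, where 7.01% of all genes were higher and 5.28% lower. With *Cdk8* KO 4 were called, 3 higher and 1 lower, where 2.28% were higher and 2.03% lower. The 6 KO libraries of each comparison came from 3 clones, and no change reached 2-fold. *Ern1* was lower and *Calr* higher in both comparisons, which share their WT libraries. With *Ccnc* KO *Edem3* was also lower, and with *Cdk8* KO *Dnajc10* and *Pdia3* were also higher.

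Markers of another cell state moved with genotype. The summed level of 12 primitive endoderm markers was 370 to 470 CPM in WT and 694 to 895 CPM in *Ccnc* KO libraries, and 375 to 456 against 862 to 1243 CPM for *Cdk8* KO, with 10 and 12 of the 12 called higher and none at 0 in any library. The 6 pluripotent cell markers summed to 3508 to 4038 against 3246 to 3795 CPM and 3442 to 3938 against 2774 to 3570 CPM, with 2 and 1 called lower. The 7 fibroblast markers summed to 4.36 to 5.23 CPM in WT against 6.50 to 10.9 CPM in *Ccnc* KO libraries, and to 3.92 to 5.53 against 7.24 to 22.9 CPM for *Cdk8* KO, with 0 to 3 of them at 0 in a library and none called of the 3 and 5 that passed the filter. The 5 neural progenitor markers summed to 48.1 to 53.2 CPM in WT against 29.2 to 40.6 CPM in *Ccnc* KO libraries, and to 47.5 to 53.1 against 34.9 to 112 CPM for *Cdk8* KO, with 0 to 1 of them at 0. Of the 3 and 4 neural markers that passed the filter, 2 were called lower with *Ccnc* KO and none with *Cdk8* KO. Clone H4 stood apart from B9 and C8, with neural progenitor sums of 97.9 and 112 CPM against 34.9 to 52.6 CPM, fibroblast sums of 19.3 and 22.9 CPM against 7.24 to 8.72 CPM, and the lowest pluripotent sums, 2774 and 2928 CPM. Without H4, 5 of the 35 genes were called with *Cdk8* KO, given here without the share of all genes in that fit. The part of these markers in the genotype results was not tested. In bulk RNA fewer cells of a type and less RNA per cell cannot be told apart.

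*Ern1* (chr11:106394650-106487852, minus strand, GRCm38) was at 17.4 and 17.2 CPM in WT under DMSO and 17.4 CPM in WT replicate 1 under ATRi. It was at 13.6, 12.2 and 12.2 CPM in D1, G2 and H5 under DMSO and at 12.7, 12.8 and 12.3 CPM under ATRi. In the *Cdk8* multiplex WT libraries were at 16.9 and 18.1 CPM under DMSO and 16.9 CPM under ATRi, and B9, H4 and C8 at 13.8, 14.9 and 14.0 CPM under DMSO and 14.6, 14.0 and 13.4 CPM under ATRi. Every KO library was below every WT library in both, the library left out included, at 16.0 CPM in each multiplex. The log2 fold changes were -0.45 ± 0.07 (SE, n = 6 KO and 3 WT libraries) and -0.29 ± 0.07, with adjusted p of 0.00109 and 0.0483 by edgeR. That test took the libraries of a clone as independent. With the clone as a random effect the values were -0.457 ± 0.075 and -0.298 ± 0.093, with adjusted p of 0.00143 and 0.166 by limma. With only the DMSO libraries the *Ccnc* KO value was -0.44 with an adjusted p of 0.0557 by edgeR.

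All 5 sensors and factors had negative log2 fold changes in both comparisons, with medians of -0.21 and -0.17 beside 0.00 and 0.01 over all genes, and *Ern1* was the one called. *Xbp1*, the factor that IRE1 activates, was at 114 and 98.6 CPM in WT and 107, 96.8 and 86.1 CPM in D1, G2 and H5 under DMSO, and at 124 CPM in WT replicate 1 and 109, 98.3 and 86.5 CPM in the clones under ATRi. Next to the *Cdk8* clones it was at 113 and 95.4 CPM in WT and 109, 81.1 and 89.2 CPM in B9, H4 and C8 under DMSO, and at 124 CPM and then 106, 80.3 and 91.9 CPM under ATRi. The WT and KO values overlapped, with log2 fold changes of -0.21 and -0.27 and adjusted p of 0.12 and 0.215 by edgeR. It was called lower with *Ccnc* KO without D1 (-0.30, adjusted p of 0.0218 by edgeR) and when every gene with 1 count or more was tested (-0.22, 0.0111), and with *Cdk8* KO without B9 (-0.39, 0.0297). With DMSO libraries alone it was at -0.12 and -0.17, with adjusted p of 0.55 and 0.651 by edgeR.

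*Eif2ak3* (PERK) was at 36.6 and 31.6 CPM in WT and 27.8, 27.7 and 32.5 CPM in D1, G2 and H5 under DMSO, and at 36.7 CPM in WT replicate 1 and 32.4, 32.5 and 30.4 CPM in the clones under ATRi. In the *Cdk8* multiplex it was at 36.6 and 32.7 CPM in WT and 34.8, 29.6 and 31.7 CPM in B9, H4 and C8 under DMSO, and at 38.3 CPM and then 33.2, 30.0 and 32.7 CPM under ATRi. The values overlapped here as well. The log2 fold changes were -0.21 and -0.17, with adjusted p of 0.0839 and 0.214 by edgeR.

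*Calr* (chr8:84841850-84846934, minus strand), the lectin chaperone that also stores calcium in the ER, was at 724 and 677 CPM in WT under DMSO and 778 CPM in WT replicate 1 under ATRi. It was at 845, 898 and 805 CPM in D1, G2 and H5 under DMSO and at 886, 784 and 804 CPM under ATRi. In the other multiplex WT libraries were at 687, 648 and 738 CPM, and B9, H4 and C8 at 774, 749 and 811 CPM under DMSO and 796, 851 and 889 CPM under ATRi. The KO libraries lay above these 3 WT libraries, but the library left out, at 838 and 789 CPM, lay among them. The log2 fold changes were 0.21 ± 0.06 and 0.21 ± 0.05, with adjusted p of 0.0455 and 0.0417 by edgeR. With the left-out library included these became 0.15 and 0.18, with adjusted p of 0.186 and 0.0686 by edgeR, and the *Ccnc* call was also lost without any 1 of D1, G2, H5 or WT replicate 2 (0.0523 to 0.175).

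**Figure D4:**
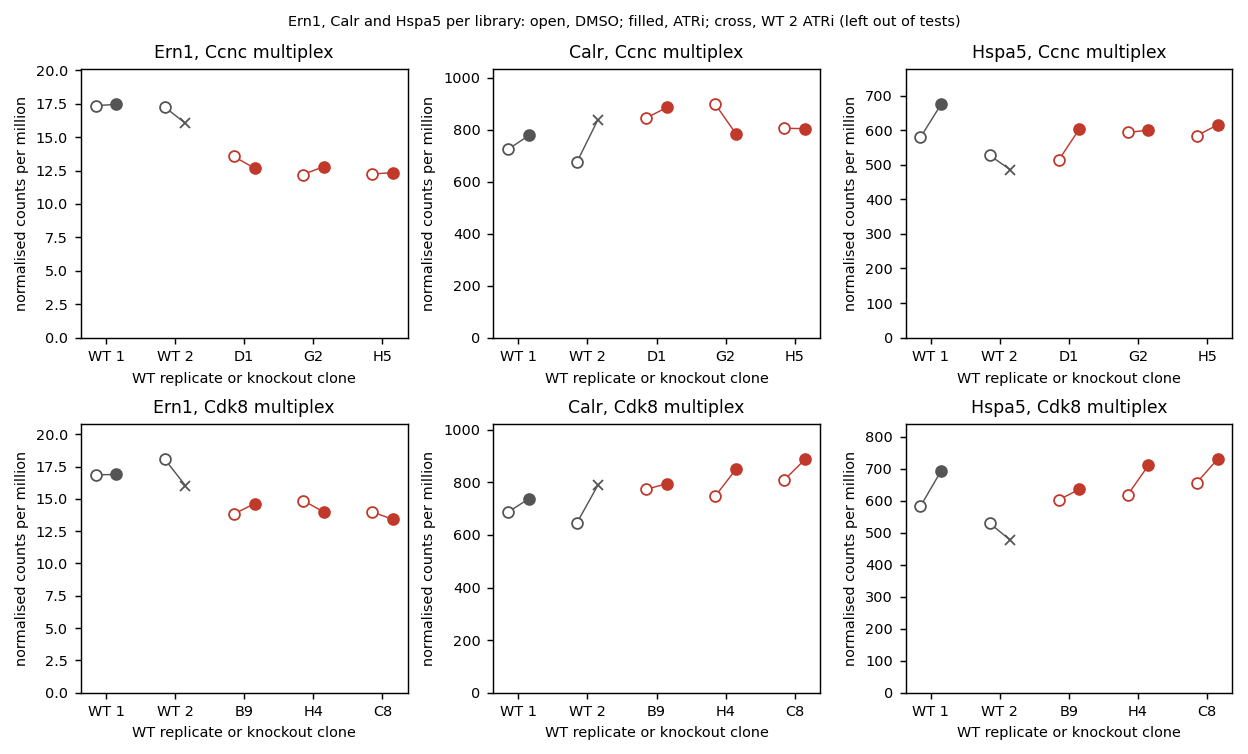
*Ern1*, *Calr* and *Hspa5* in CPM (linear axes from 0) in each library of the 2 multiplexes, with open symbols for DMSO, filled symbols for ATRi, grey for WT, red for KO and a cross for the library left out of the tests. *Ern1* is at or below 14.9 in every KO library and at or above 16.0 in every WT library, whereas *Hspa5* overlaps between genotypes.

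In the degradation group *Edem3* (chr1:151755371-151822051, plus strand), which helps trim mannose from misfolded glycoproteins, was called with *Ccnc* KO at -0.29 ± 0.06 (adjusted p of 0.00352 by edgeR). It was at 55.7 and 61.3 CPM in WT under DMSO and 62.3 CPM in WT replicate 1 under ATRi, and at 45.9, 44.3 and 48.6 CPM in D1, G2 and H5 under DMSO and 52.3, 53.2 and 53.2 CPM under ATRi. The KO libraries were below these 3 WT libraries, but the library left out was at 46.4 CPM, and with it included the value was -0.19 with an adjusted p of 0.195 by edgeR. With *Cdk8* KO it was at -0.14 (adjusted p of 0.195 by edgeR). In that multiplex WT libraries were at 58.7, 58.8 and 68.4 CPM, and B9, H4 and C8 at 55.4, 58.1 and 54.6 CPM under DMSO and 58.3, 54.2 and 60.4 CPM under ATRi. 9 of the 11 degradation genes had negative values with *Ccnc* KO and 6 with *Cdk8* KO, with medians of -0.09 and 0.00. *Herpud1* was at -0.21 and -0.19, not called.

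The 2 further calls with *Cdk8* KO were a co-chaperone that reduces disulphide bonds and an isomerase that works with the lectin chaperones. *Dnajc10* (chr2:80315466-80354043, plus strand) was at 93.6 and 89.0 CPM in WT under DMSO, 99.0 CPM in WT replicate 1 under ATRi, 108, 115 and 106 CPM in B9, H4 and C8 under DMSO and 108, 118 and 115 CPM under ATRi. *Pdia3* (chr2:121413775-121438687, plus strand) was at 512 and 478 CPM in WT under DMSO, 567 CPM in WT replicate 1 under ATRi, 574, 573 and 613 CPM in the clones under DMSO and 621, 625 and 658 CPM under ATRi. Their log2 fold changes were 0.24 ± 0.05 and 0.21 ± 0.05, with adjusted p of 0.0287 and 0.0326 by edgeR. With *Ccnc* KO they were at 0.06 and 0.15, not called. There *Dnajc10* was at 92.8, 87.7 and 96.8 CPM in WT and from 86.7 to 101 CPM in the KO libraries, and *Pdia3* at 501, 467 and 548 CPM in WT and from 536 to 598 CPM in the KO libraries.

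All KO libraries lay above all WT libraries tested for *Calr* alone with *Ccnc* KO (7.53% of all genes) and for *Calr*, *Dnajc10* and *Pdia3* with *Cdk8* KO (6.59%). They lay below for *Edem1*, *Edem3* and *Ern1* with *Ccnc* KO (6.93%) and for *Atf6b* and *Ern1* with *Cdk8* KO (6.07%). For *Edem1* the library left out, at 72.3 CPM, was below every *Ccnc* KO library, the lowest of them at 74.6 CPM. By role, the 10 HSP70 and HSP90 chaperones and co-chaperones had a median of 0.03 with *Ccnc* KO and 0.09 with *Cdk8* KO. The 4 isomerases had a median of 0.05 and 0.18. *Hspa5* was at -0.04 and 0.10, with 95% intervals of -0.17 to 0.09 and -0.04 to 0.24. *Ppp1r15a* was at 0.09 and -0.04, and *Atf6* at -0.12 and -0.02.

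**Figure D5:**
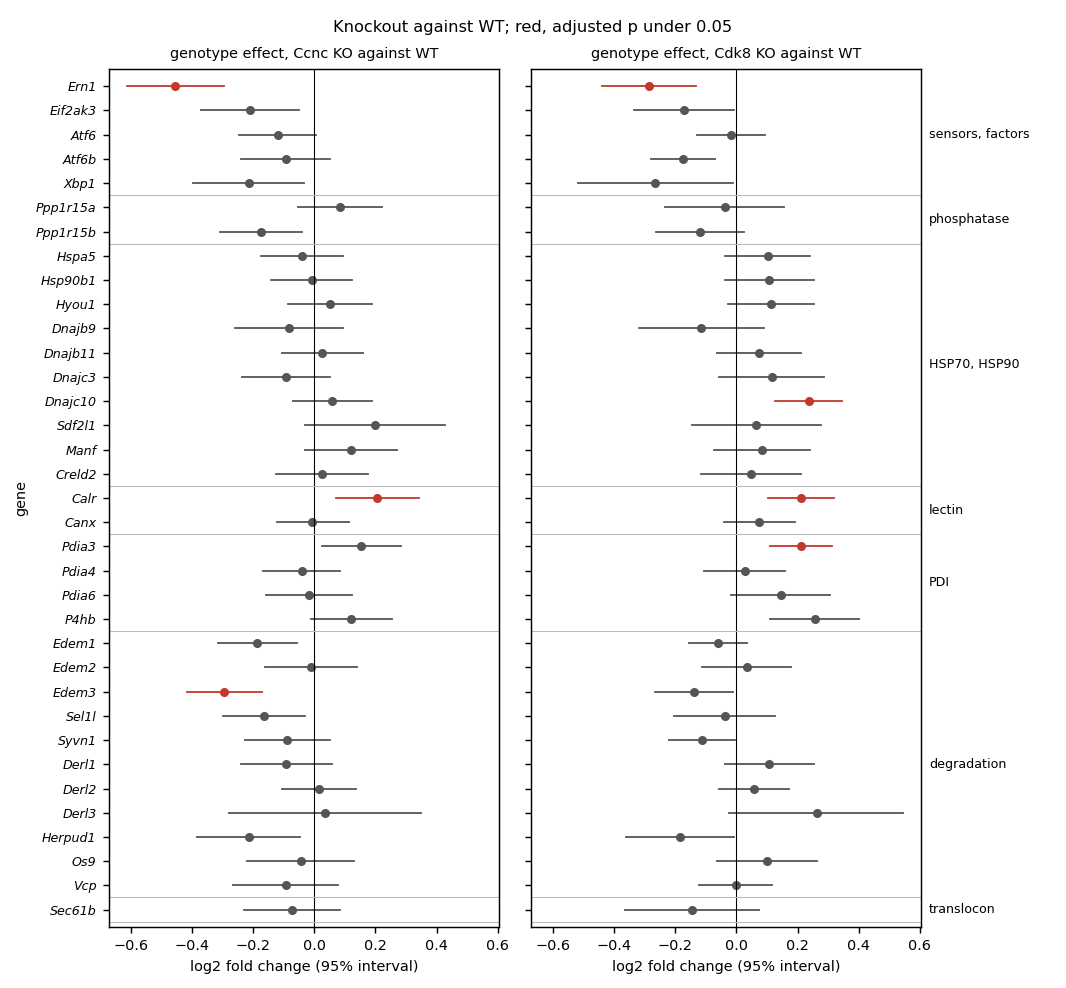
Log2 fold change of each gene in *Ccnc* KO (left) and *Cdk8* KO (right) against WT (dots) with its 95% interval (lines), by role, with red for an adjusted p under 0.05. The 5 sensors and factors lie left of 0 in both panels, and the 4 isomerases lie right of 0 with *Cdk8* KO.

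The *Cdk8* calls did not hold in every fit. With the clone as a random effect 0 of the 35 genes were called by limma, where 1.27% of all genes were, with adjusted p of 0.166 for *Ern1*, 0.0943 for *Calr*, 0.0943 for *Dnajc10* and 0.0576 for *Pdia3*, and 6 of the 35 at an unadjusted p under 0.05. Without C8 or without WT replicate 2 none was called either, and without B9 *Ern1* had an adjusted p of 0.0547 by edgeR. The same fit for *Ccnc* KO called *Ern1*, *Edem3* and *Calr*, given here without the share of all genes in that fit. These calls therefore do not show whether the 35 changed more than other genes.

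Other genes of the ER network were read beside these. Of all genes, 7.01% were called higher and 5.28% lower with *Ccnc* KO, and 2.28% and 2.03% with *Cdk8* KO. Of 27 other ER folding genes, 3 were higher with *Ccnc* KO and 4 with *Cdk8* KO, and none lower, with medians of 0.12 and 0.12. The thioredoxin-like *Txndc12* was at 0.40 and 0.44 (adjusted p of 0.00101 and 0.00447 by edgeR) and the membrane thioredoxin *Tmx1* at 0.32 and 0.33. Of 19 other degradation genes 2 were higher and 1 lower with *Ccnc* KO, and 2 were higher with *Cdk8* KO, with the lectin *Erlec1* at 0.26 and 0.21. Of 24 genes of translocation and glycosylation, 1 was higher and 1 lower with *Ccnc* KO (*Ssr4*, of the translocon-associated complex, at 0.29, and *Sec11c*, of the signal peptidase, at -0.38) and 1 was higher with *Cdk8* KO (*Ssr4*, at 0.22). Of 15 other regulators 2 were lower in each comparison and none higher. *Trib3* was at -0.32 and -0.50, *Atf4* at -0.41 with *Cdk8* KO, and *Bbc3*, a BH3-only gene, at -0.50 with *Ccnc* KO. Of 18 cytosolic heat shock genes 1 was lower in each comparison, *Hsph1* at -0.25 with *Ccnc* KO and *Hspb1* at -0.24 with *Cdk8* KO.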

How the data were processed

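The authors trimmed single-end reads of stranded poly(A) libraries with Trimmomatic 0.38, aligned them to GRCm38.p6 with HISAT2 2.1.0 and used featureCounts 2.0.1 for stranded counting on genes, set to ignore marked duplicates. Whether duplicates were marked beforehand is not given in the sources used here, and leaving them out of single-end reads lowers abundant genes most. They deposited raw counts per gene and lane for 40 lane samples, and rlog values that were not used here. Reads shared by similar genes cannot be assigned again from counts. Lanes were summed here, 2 to a library, which gave 20 libraries with a median of 41972557 reads. The 35 genes and the further lists were chosen with earlier results of these data known, as were the promoter motifs.

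Each multiplex was tested on its own in R 4.3.3 with the quasi-likelihood test of edgeR 4.0.16, after TMM scaling and filterByExpr, with Benjamini-Hochberg adjustment over all genes tested. Called means an adjusted p under 0.05. Genotype was fitted with treatment, ATRi with genotype, their interaction with both, and ATRi also within KO clones. Every value is log2 KO over WT or ATRi over DMSO. Intervals are 95% intervals of the fit and cover these libraries only. The clone fit used limma 3.58.1 for genotype, and DESeq2 1.42.0 was an alternative. Values per library were printed for 6 fixed genes (*Hspa5*, *Xbp1*, *Ern1*, *Eif2ak3*, *Atf6*, *Ppp1r15a*) and for up to 6 called genes with the largest change per contrast, and other genes were named when they were called and among the 2 largest changes of their list. *Hsp90b1*, *Sel1l*, *Syvn1*, *Derl1* and others outside this rule were named for their role after their values were seen. Exon lengths for RPKM, computed here from CPM, came from GENCODE M21. Promoters came from RefSeq (GRCm38.p6). Both libraries of a clone come from the same line, which pairs them. Their deviations from the group means correlated with r of 0.02 to 0.18 for *Ccnc* KO clones and 0.18 to 0.63 for *Cdk8* KO clones.

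The scripts were tested on simulated data, in which every library was drawn independently and no clone effect was set. There the interaction test called 17% (*Ccnc* KO) and 4% (*Cdk8* KO) of the genes given a log2 change of 0.5. Unchanged genes made up 4.62% to 15% of the calls, depending on the contrast.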

Additional observations from a re-analysis of the deposited data

Results flagged for a closer look

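The library left out of the tests, WT replicate 2 under ATRi, stood outside the other WT libraries. In the *Ccnc* multiplex 9 of the 35 genes were above every other WT library in it, and in the *Cdk8* multiplex 7 were, while 15 in each were below. These are 2 sequencing runs of 1 library. The highest against its own DMSO library in the *Ccnc* multiplex was *Derl3*, at 6.97 against 3.93 CPM, followed by *Syvn1*, at 110.0 against 73.0 CPM. The lowest was *Vcp*, at 155 against 230 CPM. *Herpud1* in this library, at 20.2 and 19.3 CPM, was below its DMSO library, at 26.0 and 24.9 CPM.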

How the results depend on the processing

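The number of the 35 genes called changed as follows, given without the share of all genes called in each fit. Counts in this section therefore do not show whether the 35 changed more than other genes. With *Ccnc* KO it was 5 when every gene with 1 count or more was tested and 0 with DMSO libraries alone (5 at an unadjusted p under 0.05). With *Cdk8* KO it was 0 with the replicate block and 0 with DMSO libraries alone (6 at an unadjusted p under 0.05). With ATRi it was 2 with DESeq2 in the *Ccnc* multiplex and 9 with the replicate block in the *Cdk8* multiplex. Within *Cdk8* KO clones it was 1 with DESeq2 and 3 with the replicate block. The replicate block changed no other call of the 35 genes.

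Leaving out 1 clone or WT replicate 2 gave 0 to 5 called genes with *Cdk8* KO, 2 to 4 with *Ccnc* KO, 0 to 1 with ATRi in the *Cdk8* multiplex and 0 within *Ccnc* KO clones, whichever clone was left out. In those fits the lone library of an arm is assumed to vary like the other groups. The cause of these changes was not tested, except that leaving out libraries leaves fewer samples.

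Of 328 values of named genes under the alternatives, 270 kept their direction and side of the threshold, 34 lost a call, 6 gained one and 18 changed sign, all of the last in genes without a call. With WT replicate 2 under ATRi included, *Hspa5* was at 0.045 and *Ppp1r15a* at -0.003 with *Ccnc* KO, and *Ppp1r15a* was at 0.043 with ATRi in the *Ccnc* multiplex. With DMSO libraries alone *Hspa5* was at 0.038 with *Ccnc* KO. *Ern1* with ATRi in the *Ccnc* multiplex was at 0.005 with RLE size factors, 0.003 when every gene with 1 count or more was tested and 0.006 with DESeq2. Leaving out 1 clone or WT replicate 2, values ran from -0.018 to 0.028 for *Ern1* and from -0.06 to 0.002 for *Ppp1r15a* there, from -0.06 to 0.067 for *Ppp1r15a* with ATRi in the *Cdk8* multiplex, and from -0.026 to 0.01 for *Atf6* and from -0.105 to 0.013 for *Ppp1r15a* with *Cdk8* KO. The interaction of *Herpud1* was at 0.044 and 0.014 with the replicate block. It ran from -0.119 to 0.053 with *Ccnc* KO and from -0.134 to 0.013 with *Cdk8* KO when 1 clone or WT replicate 2 was left out.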
